A study of Mus musculus with 9 samples.

Results

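The 10 genes described here encode G protein-coupled receptors through which astrocytes respond to neurotransmitters. They were chosen by symbol, as receptors known in astrocytes, and are 10 of the 22092 genes found in the data. Messenger RNA (mRNA) bound to tagged ribosomes was measured by translating ribosome affinity purification (TRAP) and RNA-seq in 3 whole astrocyte TRAP libraries, each from 1 whole brain without its choroid plexus, and in 6 endfeet TRAP libraries, each from purified brain vessels pooled from 8 mice. All mice were 2 months old, of strain Aldh1L1 JD130 and genotype tg:Aldh1L1-L10aGFP. In this line a bacterial artificial chromosome drives a GFP-tagged ribosomal protein L10a from the Aldh1l1 promoter, which is active in astrocytes, so both groups carry the transgene, and buffers for vessel purification held cycloheximide, which stalls ribosomes. The comparison asks which of the receptor mRNAs carried by astrocyte ribosomes are also found at the perivascular endfeet, the processes that cover brain vessels, and at what level.

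These receptors signal through heterotrimeric G proteins. Receptors coupled to Gq, such as the metabotropic glutamate receptor Grm5, the α1A adrenergic receptor Adra1a and the ADP receptor P2ry1, activate phospholipase C and release calcium from internal stores. Receptors coupled to Gi or Go, such as Grm3, Adra2a, the adenosine receptor Adora1 and the GABA-B receptor built from Gabbr1 and Gabbr2, lower cyclic AMP, whereas the β1 adrenergic receptor Adrb1 raises it through Gs. Ntsr2 encodes a neurotensin receptor that is abundant in astrocytes. In astrocytes, calcium signals in the endfeet have been linked to the control of vessel diameter.

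Values are given as CPM, the counts scaled to a common library size with TMM factors, and levels of different genes are compared only after division by transcript length in kb. The total of gene counts was 35984144 to 43521208 in whole astrocyte TRAP and 2319495 to 13450588 in endfeet TRAP. The floor of detection was taken as 3 counts, worth 0.0689 to 0.0834 CPM and 0.223 to 1.29 CPM. These floor values were scaled by the totals alone, without TMM factors, and differ slightly from the scale of the other values. This floor accounts for counting error alone, as reads were amplified without molecular identifiers. Endfeet libraries varied far more among themselves, with a common dispersion of 0.725 against 0.0142, and endfeet library 6 was the shallowest. Summed over 12 astrocyte markers, 39900 to 41300 CPM were found in whole astrocyte TRAP and 12500 to 33800 CPM in endfeet TRAP, where 1 marker was higher and 6 were lower. Over 12 neuronal markers, the sums were 4160 to 4780 CPM and 1410 to 2350 CPM, with 1 marker higher and 3 lower. The 9 endothelial markers summed to 4.92 to 7.44 CPM in whole astrocyte TRAP, with Ly6c1 at 0 in the 3 libraries, and to 3200 to 4780 CPM in endfeet TRAP, and the 9 mural markers to 41.2 to 46.3 CPM and 4090 to 8550 CPM. All 18 were higher in endfeet TRAP, as were 8 of 10 microglia and macrophage markers, 6 of 6 fibroblast markers, 5 of 6 ependymal markers and 5 of 6 choroid plexus markers. The choroid plexus sum was 74.0 to 1530 CPM in whole astrocyte TRAP and 6780 to 89800 CPM in endfeet TRAP, with the top value in library 1. In such bulk libraries, fewer astrocyte processes and less RNA per process cannot be told apart, and the part of these other cell types in the results below was not tested.

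All 10 receptor mRNAs passed the filter on low counts. In edgeR's quasi-likelihood test, 2 of the 10 receptors, P2ry1 and Adra2a, were higher in endfeet TRAP, beside 20.7% of the 14427 genes tested, and 0 were lower, beside 13.9%. In either direction, 2 of 10 receptors and 34.6% of all genes tested were called. Without adjustment, edgeR gave 2 receptors higher, beside 25.6% of genes, and 2 lower, beside 19.0%, at p under 0.05. DESeq2 called 2 receptors higher, beside 25.0% of genes, and 0 lower, beside 15.7%, of 40.7% called in all. With limma voom and group weights, 2 receptors were called higher, beside 27.2% of genes, and 3 lower, beside 31.1%, of 58.4% called in all. The median log2 fold change was -0.21 over the receptors and 0.10 over all genes. All 6 endfeet libraries lay above all whole astrocyte libraries for 2 receptors, as for 18.9% of genes, and below them for Gabbr1 and Adora1, as for 23.8% of genes.

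**Figure D1:**
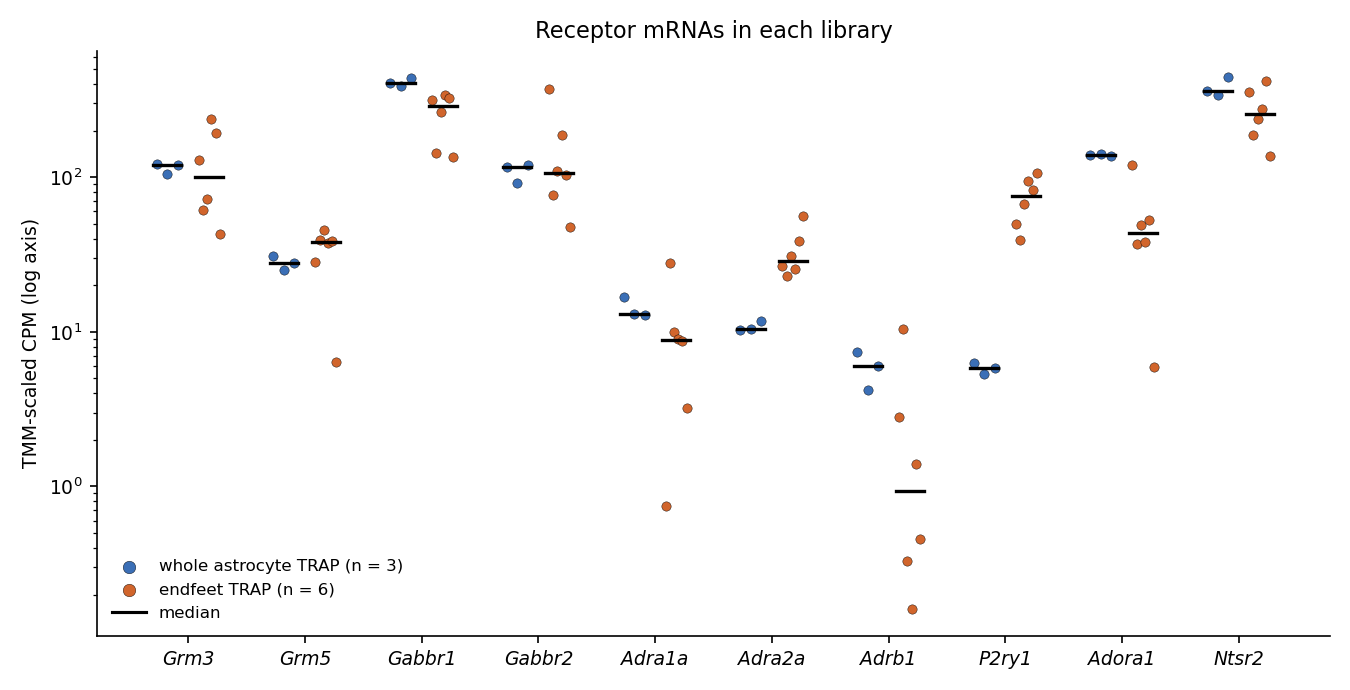
TMM-scaled CPM of each receptor mRNA on a log axis, with 1 point per library and a line at the median of each group. P2ry1 and Adra2a are above all whole astrocyte libraries in the 6 endfeet libraries, Gabbr1 and Adora1 are below them, and the groups overlap for the other receptors.

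P2ry1, the receptor for extracellular ADP that drives calcium release in astrocytes, was the receptor with the largest difference. Its gene lies at chr3:61002795-61008982 (mm10, plus strand). The mRNA was counted over a transcript (ENSMUST00000029331) of 3886 bases in 2 exons, and the first 90 bases of its open reading frame, at chr3:61003442-61003531, are shown to identify it, with the start codon in capitals.
P2ry1 coding start: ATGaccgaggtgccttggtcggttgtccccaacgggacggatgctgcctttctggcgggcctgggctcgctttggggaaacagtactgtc
In whole astrocyte TRAP libraries 1 to 3, 231, 203 and 267 reads gave 6.24, 5.37 and 5.86 CPM. In endfeet TRAP libraries 1 to 6, 264, 342, 1019, 1167, 1127 and 235 reads gave 49.5, 39.3, 67.0, 93.9, 83.1 and 107 CPM. The lowest endfeet library was thus above every whole astrocyte library in CPM. The 235 reads of the shallowest endfeet library were within the range of the far deeper whole astrocyte libraries. The means were 5.83 ± 0.437 CPM (SD, n = 3) and 73.4 ± 26.2 CPM (SD, n = 6), a 12.6-fold difference. On the log2 scale it was 3.65 (SE 0.472, 95% confidence interval 2.63 to 4.67, adjusted p = 6.9e-05 by edgeR with Benjamini-Hochberg adjustment over all genes). It was called in 24 of 24 alternative analyses, with log2 fold changes of 3.12 to 4.56, and amounted to 3.62 without endfeet libraries 1 and 6.

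Adra2a, the α2A adrenergic receptor for noradrenaline, was the other receptor that rose. Its gene (ENSMUST00000036700) is a single exon of 4832 bases at chr19:54044151-54048982 (mm10, plus strand), and the start of its coding sequence is at chr19:54046215-54046304.
Adra2a coding start: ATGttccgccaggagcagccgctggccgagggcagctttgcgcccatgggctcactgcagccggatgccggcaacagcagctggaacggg
Whole astrocyte TRAP libraries held 10.3, 10.5 and 11.7 CPM. Endfeet TRAP libraries 1 to 6 held 26.5, 22.8, 30.7, 25.4, 38.7 and 56.2 CPM. The groups did not overlap, and library 6, the shallowest, was the highest. The means were 10.8 ± 0.745 CPM (SD, n = 3) and 33.4 ± 12.5 CPM (SD, n = 6), a 3.08-fold difference. The log2 fold change was 1.62 (SE 0.488, 95% confidence interval 0.57 to 2.67, edgeR adjusted p = 0.021). The call was made in 19 of 24 alternatives and had an adjusted p of 0.0504 without endfeet library 5, of 0.0922, 0.101 and 0.0849 without whole astrocyte libraries 1, 2 and 3, and of 0.0974 with the replicate number as a block.

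Markers of vessel cells were higher in endfeet TRAP together with P2ry1 and Adra2a, the median of the endothelial sum by 680-fold and that of the mural sum by 154-fold. In endfeet libraries 1 to 6 the endothelial sum was 3200, 4150, 4780, 4190, 4160 and 3660 CPM, and the mural sum was 4090, 7880, 6740, 8550, 6700 and 6750 CPM. In the same libraries P2ry1 was at 49.5, 39.3, 67.0, 93.9, 83.1 and 107 CPM, and Adra2a at 26.5, 22.8, 30.7, 25.4, 38.7 and 56.2 CPM. The part of these cells in the P2ry1 and Adra2a differences was not tested.

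**Figure D2:**
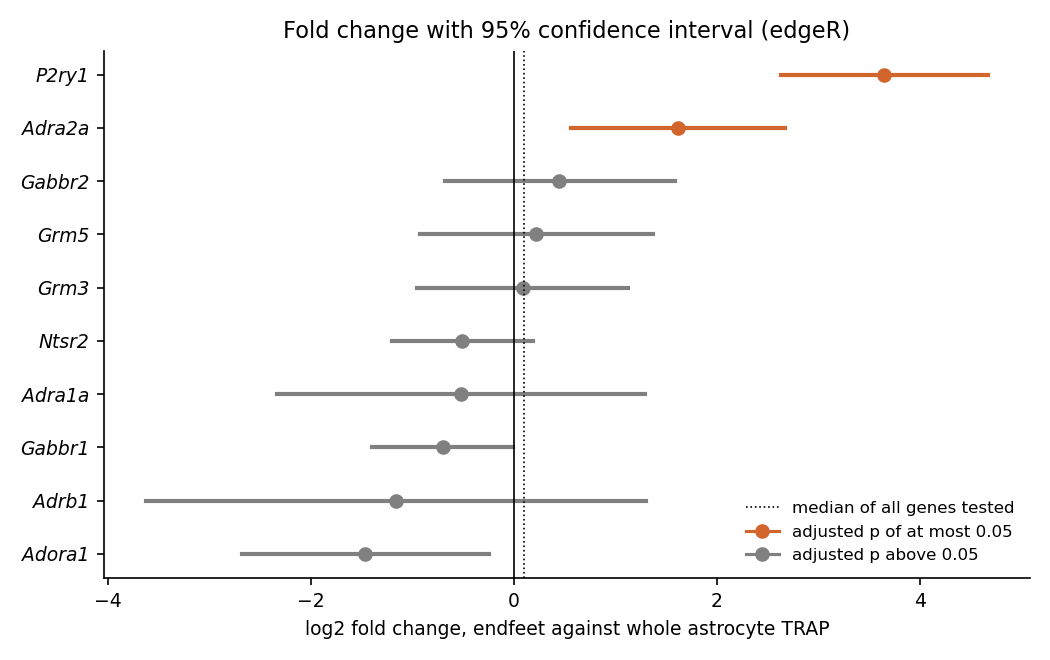
Log2 fold change of each receptor between endfeet TRAP and whole astrocyte TRAP, with its 95% confidence interval from edgeR; the dotted line marks the median of all genes tested, 0.10. The intervals of P2ry1 and Adra2a are above 0, those of Adora1 and Gabbr1 end just below 0 although their adjusted p was above 0.05, and that of Adrb1 is the widest, from -3.62 to 1.30.

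Adora1, the A1 adenosine receptor, had the lowest fold change of the receptors. In whole astrocyte TRAP it stood at 139, 141 and 138 CPM, the tightest of the 10. In endfeet TRAP libraries 1 to 6 it stood at 120, 37.0, 49.4, 37.8, 52.7 and 5.94 CPM. All endfeet libraries were lower, but library 1 nearly reached the whole astrocyte values and library 6, with 13 reads, was far under the others. Its log2 fold change of -1.46 (SE 0.565, 95% confidence interval -2.68 to -0.24) had an edgeR adjusted p of 0.061. It passed the threshold in 8 of 24 alternatives. One of these left out libraries 1 and 6 (-1.64, edgeR adjusted p = 0.000134), and others left out library 1 alone (-1.91, adjusted p = 0.00924) or library 6 alone (-1.23, adjusted p = 0.0244).

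The purinergic receptors P2ry1 and Adora1 were also compared with each other inside each library, as the log2 ratio of their raw counts, which does not depend on the scaling of libraries. The ratio was -4.48, -4.71 and -4.55 in whole astrocyte TRAP and -1.28, 0.09, 0.44, 1.31, 0.66 and 4.12 in endfeet TRAP. Reads of P2ry1 were thus far fewer than those of Adora1 in every whole astrocyte library and more numerous in 5 of 6 endfeet libraries. The mean ratio differed by 5.47, with a two-sided exact permutation p of 0.0119, the smallest that 84 splits allow, and an adjusted p of 0.0595 over the 5 ratios tested. Since the mRNAs differ in length, the ratio compares groups and not the level of one receptor with the other.

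Gabbr1 and Gabbr2 encode the obligate subunits of the GABA-B receptor. Gabbr1 (chr17:37045966-37075067) was at 408, 386 and 440 CPM in whole astrocyte TRAP and at 317, 143, 263, 338, 326 and 134 CPM in endfeet TRAP. All endfeet libraries were below the whole astrocyte libraries. A log2 fold change of -0.70 was estimated (SE 0.32, 95% confidence interval -1.39 to -0.01) with an edgeR adjusted p of 0.11, and the call was made in 2 of 24 alternatives, with a filter of 10 counts in every library (adjusted p = 0.0463) and with limma voom (adjusted p = 0.00845). Gabbr2 (chr4:46662305-46991873) was at 117, 91.0 and 119 CPM and at 369, 77.1, 110, 187, 103 and 47.5 CPM. Endfeet library 1 had the highest value and library 6 the lowest, and the groups overlapped, with a log2 fold change of 0.45 (SE 0.525, edgeR adjusted p = 0.53). Without library 1 the value was -0.05.

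The subunits were also set against each other within each library. The log2 ratio of Gabbr1 to Gabbr2 counts was 1.80, 2.08 and 1.89 in whole astrocyte TRAP and -0.22, 0.89, 1.25, 0.86, 1.66 and 1.49 in endfeet TRAP, lower in each endfeet library than in any whole astrocyte library. The means of 1.93 and 0.99 differed by -0.94 (exact permutation p = 0.0476), but the adjusted p was 0.0793 over the 5 ratios.

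Gabbr1 has longer and shorter transcripts that start at different exons, known for the GABA-B1a and GABA-B1b isoforms, of which the former carries a pair of extra sushi domains at its outer end. To show where they differ, a coding exon of the long transcript at chr17:37047454-37047657, upstream of the start of the shorter one, is printed first. The coding bases found only in the shorter transcript, at chr17:37050854-37050998, follow, with the start codon in capitals.
Gabbr1 exon of the long transcript: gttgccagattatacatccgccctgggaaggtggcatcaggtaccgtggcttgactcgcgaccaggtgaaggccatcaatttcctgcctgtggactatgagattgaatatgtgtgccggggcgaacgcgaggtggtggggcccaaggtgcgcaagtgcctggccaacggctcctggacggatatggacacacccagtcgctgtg
Gabbr1 start of the short transcript: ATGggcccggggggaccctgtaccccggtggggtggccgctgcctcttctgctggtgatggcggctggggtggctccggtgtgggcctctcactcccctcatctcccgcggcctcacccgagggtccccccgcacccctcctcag
Reads over the upstream exons were counted on a separate annotated transcript of 1595 bases, of which 734 lie in exons of the long transcript, 861 in its introns and 0 in exons of the shorter transcript. Per 100 reads of the shorter transcript, there were 2.11, 2.03 and 2.22 such reads in whole astrocyte TRAP, and 3.94, 13.2, 6.42, 2.08, 4.95 and 3.36 in endfeet TRAP. The proportion exceeded the whole astrocyte range in 5 of 6 endfeet libraries and was highest in library 2, with 146 reads, while library 6 had only 5 reads. This measure was chosen after the data were seen and was not tested, and reads from introns cannot be told apart from those of the long mRNA. Of the 4036 bases of the shorter transcript, 3668 are shared with the long one, and reads there were counted on both. The proportion is therefore not a ratio of the long to the short isoform.

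**Figure D3:**
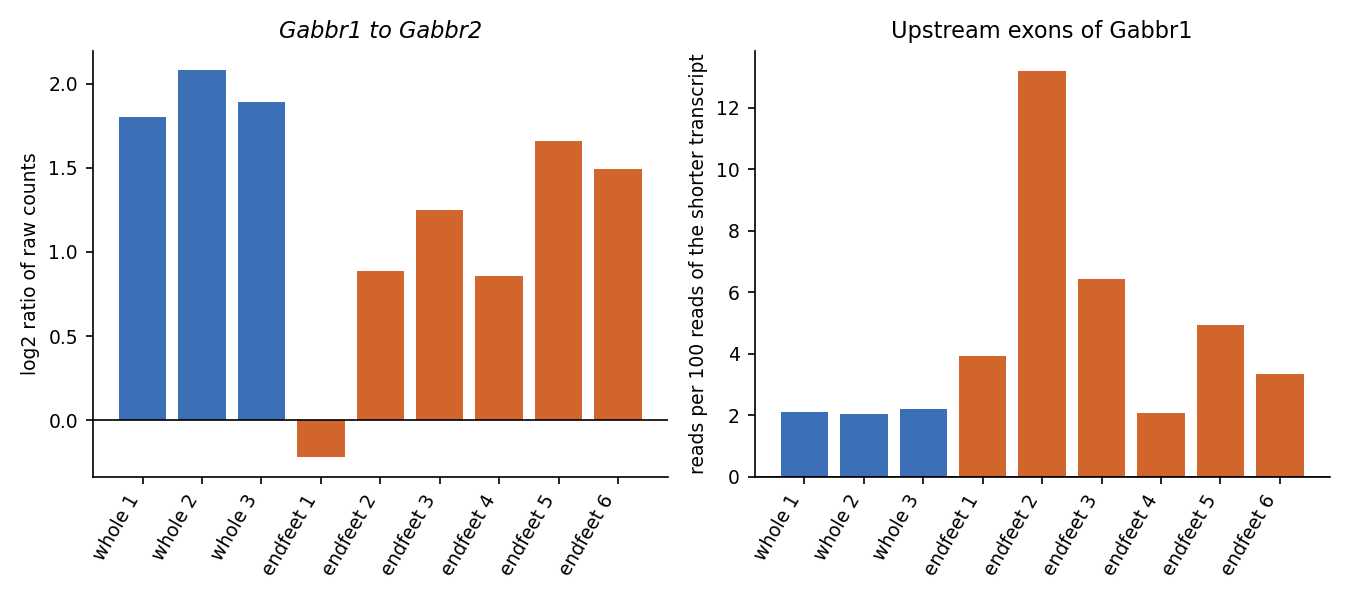
Left, log2 ratio of Gabbr1 to Gabbr2 raw counts in each library. Right, reads on the upstream transcript of Gabbr1, of 1595 bases, per 100 reads of its shorter transcript. Of these bases, 734 lie in exons of the long transcript and 861 in its introns. The shorter transcript shares 3668 bases with the long one, so the right panel is not a ratio of isoforms. The ratio is lower in the 6 endfeet libraries than in the 3 whole astrocyte libraries, and the upstream reads reach 13.2 per 100 in endfeet library 2 against 2.03 to 2.22 in whole astrocyte TRAP.

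The metabotropic glutamate receptors did not differ detectably. Grm3 (chr5:9485541-9725170), which couples to Gi and binds glutamate, was at 121, 105 and 120 CPM in whole astrocyte TRAP. In endfeet TRAP libraries 1 to 6, it was at 129, 61.0, 72.3, 237, 192 and 42.9 CPM. Endfeet libraries 1, 4 and 5 were above all whole astrocyte libraries and libraries 2, 3 and 6 below them. The log2 fold change was 0.09 (SE 0.48, 95% confidence interval -0.95 to 1.13, edgeR adjusted p = 0.90). Grm5 (chr7:87584168-88134907), the Gq-coupled receptor, was at 30.7, 25.2 and 28.0 CPM and at 28.1, 39.1, 45.5, 37.4, 38.6 and 6.40 CPM. Endfeet libraries 2 to 5 were higher than every whole astrocyte library and library 6, with 14 reads, was lower. The log2 fold change was 0.22 (SE 0.53, 95% confidence interval -0.92 to 1.37, edgeR adjusted p = 0.78). The log2 ratio of Grm3 to Grm5 counts was 1.98 to 2.10 in whole astrocyte TRAP and 0.64 to 2.70 in endfeet TRAP, a difference of -0.18 (exact permutation p = 0.833). A shorter Grm5 coding transcript held 32.6 to 47.1 reads per 100 reads of the counted one in whole astrocyte TRAP and 1.33 to 49.9 in endfeet TRAP.

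The adrenergic receptors differed in how far the endfeet libraries spread. Adra1a (chr14:66635251-66771168), the α1A receptor that couples to Gq, was at 16.9, 13 and 12.9 CPM in whole astrocyte TRAP and at 0.750, 27.7, 9.99, 8.93, 8.77 and 3.20 CPM in endfeet TRAP. Endfeet library 2 was above all others and the rest were below all whole astrocyte libraries. Its log2 fold change of -0.52 had an SE of 0.839 and an edgeR adjusted p of 0.66. Adrb1 (chr19:56722199-56733113), the β1 receptor, was at 7.41, 4.21 and 6.01 CPM in whole astrocyte TRAP and at 2.81, 10.5, 0.329, 0.161, 1.40 and 0.457 CPM in endfeet TRAP. Endfeet values rested on 15, 91, 5, 2, 19 and 1 reads, so libraries 4 and 6 were under the floor of 3 counts and only library 2 was higher than whole astrocyte TRAP. The log2 fold change was -1.16 (SE 1.14, 95% confidence interval -3.62 to 1.30, edgeR adjusted p = 0.46). Without endfeet library 2 it was -2.45 (adjusted p = 0.0875).

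The log2 ratio of Adra2a to Adrb1 counts was 0.48, 1.31 and 0.96 in whole astrocyte TRAP and 3.19, 1.12, 6.41, 6.98, 4.75 and 6.36 in endfeet TRAP. It exceeded the whole astrocyte range in 5 of 6 endfeet libraries, and the difference of 3.89 had an exact permutation p of 0.0357 and an adjusted p of 0.0793. The ratio of Adra1a to Adrb1 ranged from 1.10 to 1.63 and from -1.78 to 5.48, and its means differed by 1.17 (exact permutation p = 0.44).

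Ntsr2 (chr12:16653382-16660227) was at 361, 341 and 442 CPM in whole astrocyte TRAP and at 356, 187, 237, 275, 417 and 138 CPM in endfeet TRAP. Endfeet libraries 1 and 5 were within the range of whole astrocyte TRAP and the other 4 below it. The 95% confidence interval of its log2 fold change ran from -1.20 to 0.19, and it was called in 0 of 24 alternatives, with log2 fold changes of -0.79 to 0.32.

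Per transcript length, Ntsr2 was the most abundant of these receptors in both groups, at 250 ± 35.1 CPM per kb (SD, n = 3) in whole astrocyte TRAP and 176 ± 68.5 CPM per kb (SD, n = 6) in endfeet TRAP, the 164th and the 151st of all genes. Gabbr1 followed at 78.4 ± 5.21 and 48.3 ± 17.7 CPM per kb. Ntsr2 was above Gabbr1 in every library and their ranges did not overlap in either group. In whole astrocyte TRAP came Adora1 (38.4 ± 0.363 CPM per kb), Grm3 (37.8 ± 3.05) and Gabbr2 (18.9 ± 2.69). Then came Grm5 (3.48 ± 0.338 CPM per kb), Adra1a (3.47 ± 0.546), Adra2a (2.24 ± 0.154), Adrb1 (1.99 ± 0.543) and P2ry1 (1.50 ± 0.112). Adora1 and Grm3, Grm5 and Adra1a, Adra2a and Adrb1, and Adrb1 and P2ry1 were neighbours whose ranges overlapped, while the others in this order did not.

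In endfeet TRAP the order was Ntsr2, Gabbr1, Grm3 (40.1 ± 25.7 CPM per kb), Gabbr2 (25.9 ± 20.4), P2ry1 (18.9 ± 6.75), Adora1 (13.9 ± 10.5), Adra2a (6.91 ± 2.59), Grm5 (4.04 ± 1.73), Adra1a (2.40 ± 2.30) and Adrb1 (0.882 ± 1.35). Except for Ntsr2 and Gabbr1, all neighbours in this order overlapped. P2ry1 moved from the 10th to the 5th place among the receptors, and from 10813 to 3490 in the order of all genes. Adora1 went from the 3rd to the 6th place among the receptors, and from 1947 to 4679 among all genes.

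**Figure D4:**
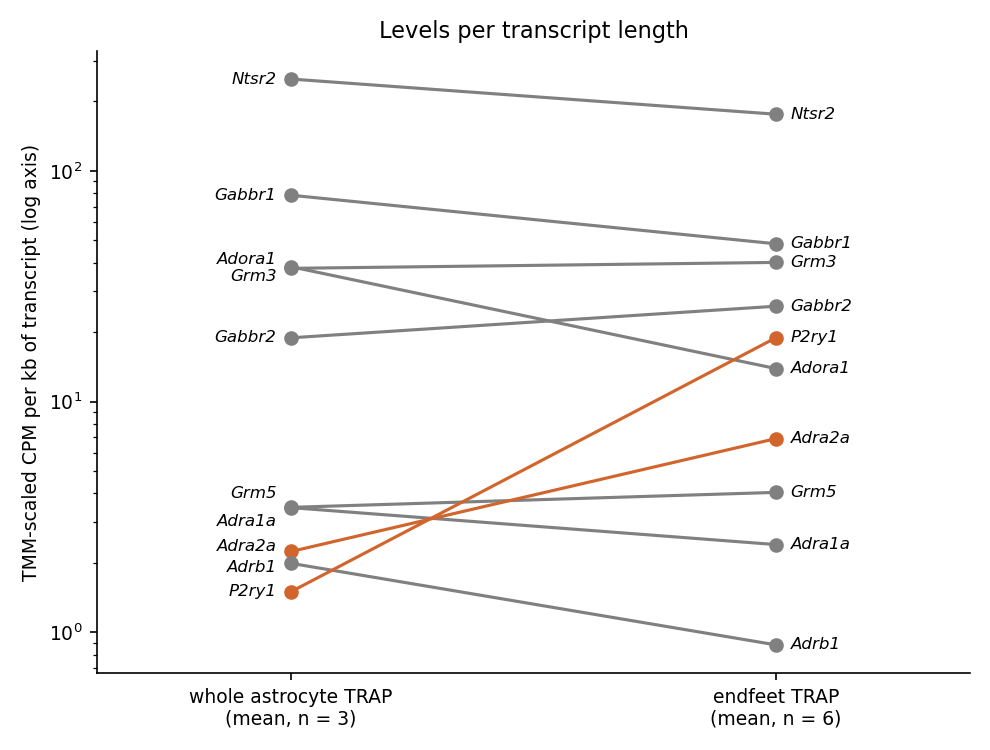
Mean TMM-scaled CPM per kb of transcript on a log axis, with a line from whole astrocyte TRAP to endfeet TRAP for each receptor; orange marks an adjusted p of at most 0.05. P2ry1 goes from 1.50 to 18.9 CPM per kb and crosses 5 receptors, while Ntsr2 and Gabbr1 are the top pair in both groups.

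The direction of the mid-range receptors depended on the scaling. The astrocyte marker library size was the plain sum of the counts of the 12 markers. Slc1a2, the largest of them in endfeet TRAP, had a mean of 8040 CPM in whole astrocyte TRAP and 15300 CPM in endfeet TRAP. The markers did not move together, with log2 fold changes from -4.0 for Aldoc to 1.67 for Aqp4, 1 called higher and 6 lower by edgeR. With library sizes set by the astrocyte markers, which raised the median log2 fold change of all genes from 0.10 to 1.05, P2ry1 was at 4.56 and Adra2a at 2.56, above that median and past the threshold. Under this scaling Gabbr1 turned to 0.16, Ntsr2 to 0.32 and Adra1a to 0.66, Adora1 was at -0.65 (adjusted p = 0.441) and Adrb1 at -0.02, none past the threshold. With DESeq2 size factors the median of all genes was 0.12, and the same 2 receptors were called.

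The libraries fall into 2 series by the numbers they carry, whose meaning is not stated. Endfeet libraries 1 to 3 form one, and endfeet libraries 4 to 6 and the 3 whole astrocyte libraries form the other. Within the latter series, P2ry1 (log2 fold change 3.89, edgeR adjusted p = 0.000157) and Adra2a (1.75, adjusted p = 0.0148) were higher, and Adora1 (-2.22, adjusted p = 0.029) and Adrb1 (-3.18, adjusted p = 0.0297) were lower, beside 19.5% of genes higher and 19.7% lower (39.2% in all). With endfeet libraries 1 to 3 alone against whole astrocyte TRAP, P2ry1 was at 3.13 and Adra2a at 1.28, both called, Adora1 at -1.07 and Adrb1 at -0.40, neither called.

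By likeness of profile over the 9 libraries, measured as Pearson's r of log2(CPM + 1) among 12496 genes, P2ry1 was closest to Sgpp2 and Cyth3 (both 0.988) and Adra2a to Tmem51 and Tex261 (both 0.988). Adora1 was closest to Cluh (0.994) and Gm5424 (0.991), Gabbr1 to Tnnt1 (0.987) and Irs2 (0.973), and Gabbr2 to Cnr1 (0.981), the cannabinoid receptor, and Itgbl1 (0.974). Ntsr2 was closest to Fgfr3 (0.969), a growth factor receptor, and Sumf2 (0.963), Grm3 to Tppp (0.969) and Dnajc6 (0.946), and Grm5 to Ptpn12 (0.979) and Fkbp10 (0.973). Adra1a was closest to Arhgap35 (0.986) and Kcnn3 (0.973), and Adrb1 to Dimt1 (0.930) and Ahcyl2 (0.916). The 9 points share depth and cell makeup, and these values are descriptions only.

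RefSeq promoter windows of build GRCm38.p6 were found for 8 of the 10 receptors, as 9 windows of 250 bases before a start that RefSeq gives, and Grm5 and Adra1a had none. Against the gene positions of GENCODE used for the counts, 5 windows lay outside the gene, those of Gabbr2 and Ntsr2 ran partly into it, and that of Adra2a and 1 of the pair of Adora1 lay wholly inside it. The GC box, read as GGGCGG or its reverse CCGCCC, was in 7 of the 9 windows and in 32.7% of 32851 windows of all genes, and the windows held 55.2% to 80.8% of G and C. The windows without it were that of Ntsr2 and the Adora1 window inside the gene. The CCAAT letters, on either strand, were in 1 of 9 windows, that of Adrb1, and in 33.8% of all windows. TATAAA, on either strand, was in 1 of 9, that of Adra2a, and in 12.4% of all. The cyclic AMP response element TGACGTCA was in 0 of 9 and in 1.55% of all. The window of P2ry1, the receptor with the largest difference, is given as an example, at chr3:61002535-61002784 (plus strand), with its pair of GC boxes in capitals.
P2ry1 upstream window: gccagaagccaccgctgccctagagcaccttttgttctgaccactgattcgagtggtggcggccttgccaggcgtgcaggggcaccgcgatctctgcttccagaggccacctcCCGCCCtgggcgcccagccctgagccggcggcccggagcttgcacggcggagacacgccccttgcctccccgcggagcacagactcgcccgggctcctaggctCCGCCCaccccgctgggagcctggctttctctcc
These letter matches were not tested and say nothing of factor binding.

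Among 76 other neurotransmitter G protein-coupled receptors, 56 passed the filter, 7 (12.5%) were higher in endfeet TRAP and 0 lower by edgeR, beside 20.7% and 13.9% of all genes tested, with a median log2 fold change of 0.81. The share called was thus below that of all genes in both directions, while the median was above the 0.10 of all genes. Some of these receptors, such as Adra1d and Npy5r, had 0 reads in several endfeet libraries, with SEs of 1.49 and 1.67. The part of low counts in this share was not tested. Under the astrocyte marker scaling 2 of 5 adrenergic, 4 of 6 purinergic, 2 of 17 amine and 5 of 23 peptide and cannabinoid receptors were higher. Of the 5 glutamate receptors 0 were, and 0 were lower in any of these lists. At an unadjusted p under 0.05, edgeR gave 12 higher and 1 lower, beside 25.6% and 19.0% of all genes. DESeq2 called 12 higher and 0 lower, beside 25.0% and 15.7%, and limma voom 12 higher and 7 lower, beside 27.2% and 31.1%. Of the other metabotropic glutamate receptors, 0 of 5 tested were called by edgeR, by DESeq2 or by voom, and 0 had an unadjusted edgeR p under 0.05. P2ry14, the receptor for UDP-glucose, rose from 0.647 ± 0.300 CPM (SD, n = 3) to 54.7 ± 24.1 CPM (SD, n = 6; log2 fold change 6.39, edgeR adjusted p = 2.6e-05), and was the 1 purinergic receptor of 6 tested that was called. Htr2c, a serotonin receptor that is abundant in choroid plexus, rose from 9.25 ± 2.32 to 127 ± 95.6 CPM (3.78, edgeR adjusted p = 0.0007). Its endfeet counts were highest in libraries 1 and 2 per depth, where the choroid plexus markers were also highest, at 89800 and 40000 CPM, and the part of this tissue was not tested. Sstr4, a somatostatin receptor, rose from 0.433 ± 0.195 to 7.94 ± 3.89 CPM (4.17, edgeR adjusted p = 0.0053). Htr5b, Npy1r and Galr2 were also called higher and are named after their values were seen, each with at least 1 endfeet library inside or below the range of whole astrocyte TRAP. Without any 1 of the whole astrocyte libraries, the peptide receptors had 1 call in place of 3. Without endfeet library 1, 4 purinergic receptors were higher, and without library 6, 2 purinergic receptors were higher and 1 amine receptor lower. Without endfeet library 2 or 3, 1 peptide receptor was lower. Adra1b, the most counted of the other adrenergic receptors, was at 2.97 ± 0.462 and 6.80 ± 9.76 CPM (edgeR adjusted p = 0.50). Adcyap1r1, the receptor of the peptide PACAP and the most counted of all, was at 204 ± 33.3 and 299 ± 117 CPM (0.55, edgeR adjusted p = 0.22).

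Among the G proteins that the receptors activate, 13 of 24 subunit mRNAs tested were lower (54.2%) and 2 higher (8.33%), beside 13.9% and 20.7% of all genes. With library sizes set by the astrocyte markers, 3.13% of all genes were lower and 28.8% higher. Of 11 α subunit mRNAs tested, 5 were lower and 0 higher by edgeR, with a median log2 fold change of -0.72, beside 0.10 for all genes. Under the astrocyte marker scaling 1 was lower and 1 higher. Their median became 0.44 there, still below that of all genes, which was 1.05. At an unadjusted p under 0.05, 6 were lower and 0 higher, DESeq2 called 5 lower and 0 higher, and voom 9 lower and 0 higher. Without whole astrocyte library 1, 2 were lower. Gnao1, the α subunit of Go, fell from 1210 ± 103 to 190 ± 31.1 CPM (-2.67, edgeR adjusted p = 1.8e-06), and Gnaz from 53.5 ± 2.91 to 13.8 ± 7.26 CPM (-1.95, adjusted p = 0.0093). Gnas, the α subunit of Gs and the most counted, was at 1830 ± 34.5 and 1490 ± 283 CPM (-0.29, edgeR adjusted p = 0.34). Of 13 β and γ subunits tested, 8 were lower and 2 higher, with a median of -1.54, and 4 were lower and 2 higher under the astrocyte marker scaling. Without endfeet library 3, 4 or 5 or whole astrocyte library 1, 1 was higher, and without whole astrocyte library 2 or 3, 0 were. Gng4 fell from 53.7 ± 11.5 to 2.32 ± 1.59 CPM (-4.49, edgeR adjusted p = 0.00038), Gng10 from 113 ± 4.64 to 9.69 ± 3.76 CPM (-3.53, adjusted p = 2.7e-05) and Gnb1 from 1860 ± 22.0 to 797 ± 133 CPM (-1.22, adjusted p = 0.0009). Gnb4 rose from 28.0 ± 1.35 to 103 ± 61.0 CPM (1.88, edgeR adjusted p = 0.012) and Gng11 from 33.2 ± 2.36 to 75.9 ± 37.6 CPM (1.20, adjusted p = 0.049).

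In the Gq and calcium arm, 8 of 16 genes tested were higher (50%) and 2 lower (12.5%), beside 20.7% and 13.9% of all genes, with a median log2 fold change of 1.21. Itpr3, an IP3 receptor that releases stored calcium, rose from 0.165 ± 0.124 to 24.2 ± 6.13 CPM (7.13, edgeR adjusted p = 3.3e-05), with 4, 3 and 14 reads in whole astrocyte TRAP. Atp2b4, a calcium pump of the plasma membrane, rose from 34.2 ± 8.04 to 238 ± 59.7 CPM (2.80, adjusted p = 4.1e-05). Atp2a2, the calcium pump of the endoplasmic reticulum, rose from 261 ± 21.3 to 585 ± 183 CPM (1.16, edgeR adjusted p = 0.0096). Plcb1, a phospholipase C that Gq activates, fell from 277 ± 7.72 to 92.8 ± 29.9 CPM (-1.58, edgeR adjusted p = 0.0011) and Prkcb, a protein kinase C, from 137 ± 5.22 to 52.6 ± 23.4 CPM (-1.38, adjusted p = 0.01). Under the astrocyte marker scaling the list had 10 higher and 0 lower, beside 28.8% and 3.13% of all genes, and without whole astrocyte library 2 it had 5 higher and 2 lower.

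In the cyclic AMP arm, 8 of 22 genes were higher (36.4%) and 5 lower (22.7%), beside 20.7% and 13.9% of all genes, with a median of 0.75. Under the astrocyte marker scaling 12 were higher and 0 lower, beside 28.8% and 3.13%. Without whole astrocyte library 1 or 2, 4 were higher and 2 lower, and without library 3, 5 were higher and 3 lower. Adcy4, an adenylyl cyclase, was at 2, 0 and 2 reads in whole astrocyte TRAP, under the floor, and at 41.5 ± 28.3 CPM in endfeet TRAP (edgeR adjusted p = 1.5e-05). Akap12, an anchor of protein kinase A, rose from 7.21 ± 1.34 to 311 ± 124 CPM (5.43, edgeR adjusted p = 2.6e-06). The phosphodiesterases Pde7b and Pde10a fell by 1.91 (adjusted p = 0.00033) and 1.32 (edgeR adjusted p = 0.016) on the log2 scale, and Prkar1a, the regulatory subunit of protein kinase A with the most counts, fell by 1.09 (adjusted p = 0.0036).

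Among partners and regulators of the receptors, 3 of 19 were higher (15.8%) and 6 lower (31.6%), beside 20.7% and 13.9% of all genes, with a median of -0.41. Under the astrocyte marker scaling 3 were higher and 1 lower, beside 28.8% and 3.13%, with a median of 0.85, beside 1.05 for all genes. Without whole astrocyte library 3, 3 were lower. Grk5, a receptor kinase, rose from 3.38 ± 0.405 to 34.2 ± 14.4 CPM (3.34, edgeR adjusted p = 0.0013). Kctd12, an auxiliary subunit of the GABA-B receptor, rose from 83.8 ± 7.22 to 206 ± 52.1 CPM (1.30, adjusted p = 0.0043). The regulators of G protein signalling Rgs20 and Rgs7 fell by 3.31 (adjusted p = 4.9e-05) and 2.66 (edgeR adjusted p = 0.013) on the log2 scale. Arrb1, which encodes β-arrestin, fell from 490 ± 10.9 to 160 ± 44.5 CPM (-1.61, edgeR adjusted p = 0.0005).

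Among genes that make, take up or degrade the ligands, 3 of 16 tested were higher and 3 lower (18.8% each way), beside 20.7% and 13.9% of all genes, with a median log2 fold change of 0.00. Under the astrocyte marker scaling 4 were higher and 2 lower, beside 28.8% and 3.13%. Without endfeet library 1, 4 or 5, 5 were lower. Entpd1, which degrades extracellular ATP and ADP, rose from 34.7 ± 1.72 to 405 ± 72.0 CPM (3.54, edgeR adjusted p = 1.4e-06), and Slc29a1, a nucleoside transporter, from 1.73 ± 0.488 to 18.4 ± 6.02 CPM (3.41, adjusted p = 0.0019). Adk, which removes adenosine inside cells, fell from 421 ± 12.1 to 32.8 ± 26.2 CPM (-3.67, edgeR adjusted p = 0.00015) and Maob, which degrades monoamines, from 273 ± 6.30 to 64.2 ± 22.2 CPM (-2.09, adjusted p = 0.00013). Of the signalling genes named here as lower, Gnao1, Gng4, Gng10, Rgs20, Adk and Maob were also called lower under the astrocyte marker scaling. Gnaz, Gnb1, Plcb1, Prkcb, Pde7b, Pde10a, Prkar1a, Rgs7 and Arrb1 were not, with log2 fold changes of -0.19 for Prkar1a to -2.03 for Rgs7.

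**Figure D5:**
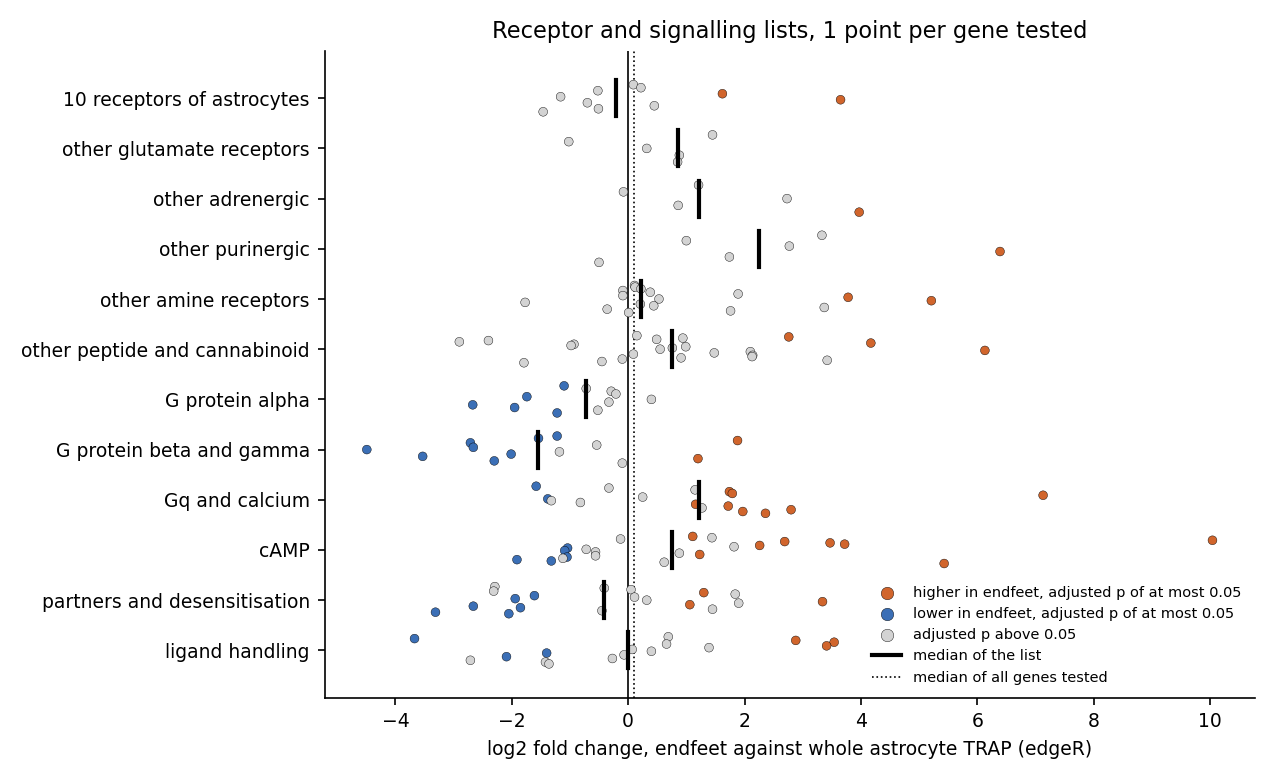
Log2 fold change of each tested gene in the receptor and signalling lists, coloured by its edgeR call, with the median of each list as a bar and that of all genes as a dotted line. Of the 56 other receptors 7 are called and all are higher, while 13 G protein subunits are called lower and 2 higher, a count that falls to 5 lower and 3 higher with library sizes set by the astrocyte markers.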

How the data were processed

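The authors immunoprecipitated GFP-tagged ribosomes, amplified the polysomal RNA with the NuGEN Ovation kit, sequenced reads of 50 bp, aligned them to mm10 with Bowtie, discarded those with several alignments, and counted overlaps with Ensembl transcripts by HTSeq (0.5.3 in the submitters' processing notes, with bcl2fastq 1.8.4). The deposited values are raw counts per transcript, neither normalized nor filtered, with replicates kept apart. Whether counting used strand is not given in the sources used here. Since reads shared by transcripts of a gene were counted on each of them, totals over transcripts were 2.06 to 2.19 times those over genes.

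Of 75466 transcripts, 73164 (96.95%) were matched to 22092 genes of GENCODE M21 (mm10). Another 2302 had no match and were not used. For each gene, the transcript with the largest sum of CPM over the 9 libraries was taken. The groups were compared in 1 fit of all libraries by edgeR 4.0.16 in R 4.3.3 (TMM, filterByExpr, glmQLFit, glmQLFTest), with Benjamini-Hochberg adjustment over 14427 genes and a threshold of 0.05. The SE was obtained from the log2 fold change and the test's F, and intervals are at 95%. Ratios of counts, with 0.5 counts added, were compared by a two-sided exact permutation test over the 84 possible groupings, adjusted over 5 ratios. The edgeR, DESeq2 and limma voom fits were also run on simulated counts. Their endfeet dispersion was set lower than that of these libraries, so the simulation does not give the error rates here. P-values measure the spread between these libraries. The study's methods give 1 whole brain for each whole astrocyte library. They do not state that the animals or vessel preparations of different endfeet libraries were separate. Pooling of 8 mice in each endfeet library, but 1 in each whole astrocyte library, cannot be told apart from the groups.

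The 10 receptors and the 11 pathway lists and 10 marker lists were chosen with earlier results of these data known, so no set test was made. Genes named from the pathway lists are, in each direction, the 2 with the largest called change whose groups did not overlap, and the 1 with the highest mean CPM. Some genes of these lists are not reported here. For likeness, the 2 genes with the highest r among those with at least 1 CPM in both groups are named.

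Alternatives, 24 in all for most receptors, were DESeq2 1.42.0 (with its prior on fold changes or without it), edgeR with size factors of DESeq2, library sizes set by the astrocyte markers, limma voom (limma 3.58.1) with group weights, no filter beyond 1 count, at least 10 counts in every library, counts summed over transcripts, the second transcript of each gene, thinning to 2319495 counts, series of library numbers as a covariate or used alone, the replicate number as a block, and each library left out. For the 5 receptors with 1 transcript, P2ry1 and Adra2a among them, the summed and second transcript settings reuse the same counts. Only the other genes change there. Leaving out endfeet libraries 1 and 6 together, and the Gabbr1 transcript parts, were added after seeing the data. Tables were handled in Python 3.11.15 with pandas 2.3.3 and numpy 2.4.6, and figures drawn with matplotlib 3.10.9.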

Additional observations from a re-analysis of the deposited data

Results flagged for a closer look

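Of 18 groups of values tested in endfeet TRAP (10 receptors, 5 ratios and 3 transcript measures), 2 had a library far from the others by Dixon's test. For normally distributed values, chance gives this in about 1 in 20 groups. The CPM were taken on the linear scale, where they need not be normal, so this rate may not hold for them. Adra1a was at 27.7 CPM in endfeet library 2, against 9.99 CPM in the next library, a gap of 0.657 of the whole range. Adrb1 was at 10.5 CPM in the same library, against 2.81 CPM in the next, a gap of 0.742 of the range. Both values rest on reads well above the floor, 241 for Adra1a and 91 for Adrb1. Without this library the log2 fold changes were -1.09 (edgeR adjusted p = 0.331) for Adra1a and -2.45 (adjusted p = 0.0875) for Adrb1. The same library had the highest share of reads on the upstream transcript of Gabbr1, which includes introns of the long transcript. Its astrocyte marker sum was 15600 CPM, the second lowest of the endfeet libraries.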

How the results depend on the processing

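P2ry1 was called higher in 24 of 24 alternatives, and Adra2a in 19. Both have 1 transcript, so the settings with summed or second transcripts reuse their counts and are not separate evidence for them. No more than 2 of the receptors were called higher under any alternative, but the number called lower changed from 0 to 2 with at least 10 counts in every library (Gabbr1 and Adora1), to 3 with voom (with Adrb1), where 4493 genes in all were lower in place of 2006, to 2 in the series of endfeet libraries 4 to 6 (Adora1 and Adrb1), and to 1, Adora1, with the series as covariate, with the second transcript, and without endfeet libraries 1 and 6, where 3369 genes were lower. With library sizes set by the astrocyte markers, 452 genes were lower, 0 receptors among them. Leaving out single libraries gave 1 to 2 receptors higher and 0 to 1 lower, with 1874 to 3380 genes higher and 1171 to 2642 lower, and the lowest counts came without a whole astrocyte library. These 9 fits keep fewer samples.

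Signs reversed for receptors that were not called. Under the astrocyte marker scaling Adra1a was at 0.66, Gabbr1 at 0.16 and Ntsr2 at 0.32. Grm3 was at -0.04 with at least 10 counts in every library, -0.44 with endfeet libraries 1 to 3 only, -0.01 with voom, and -0.34 to 0.29 with single libraries left out (-0.34 without endfeet library 4, -0.20 without library 5). Grm5 was at -0.14 in the series of endfeet libraries 4 to 6 and -0.01 with the series as covariate, and Gabbr2 at -0.07 in that series and -0.05 (without endfeet library 1) to 0.65 with single libraries left out. The ratio of Grm3 to Grm5 was 0.52 in that series, and -0.35 to 0.06 with single libraries left out (0.06 without endfeet library 2 or 3). The causes were not tested. That series allows no exact p under 0.1.

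Replicate numbers are shared between the groups, and the labels state no other link between same-numbered libraries. These did not visibly deviate together (correlations of -0.0359, 0.0172 and 0.0382). That cannot exclude a shared preparation, because endfeet libraries varied far more (common dispersion of 0.725 against 0.0142). With the replicate number as a block, over the numbers both groups have, 2501 genes were higher and 1958 lower, 1 receptor (P2ry1) was higher and 0 lower, Grm3 was at -0.47 and Adra2a at 1.29 (edgeR adjusted p = 0.0974). Depth limits Adrb1 most, with fewer than 20 reads in 5 of 6 endfeet libraries, and library 6, with its floor of 1.29 CPM without TMM factors. Adrb1 was dropped by the filter when libraries were thinned, and both Adrb1 and Adra1a by that on 10 counts.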
